A study of Mus musculus with 12 samples.

Results

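The ErbB receptors and their EGF-family ligands were followed in dermal papilla (DP) cells during late anagen, the growth phase of the hair cycle. The genes were chosen by name as Egfr, Erbb2, Erbb3, Nrg1, Nrg2, Hbegf, Tgfa, Ereg, Btc and Areg, which are 10 of the 15557 protein-coding genes listed at P14 or P16, and all 10 were listed on both days. RNA was sequenced from DP cells that carried a Cre-dependent YFP reporter and were sorted by FACS from the skin of 3 mice per group. The 4 groups were control and dMF1/2 mice at postnatal day 14 (P14) and at postnatal day 16 (P16), 12 libraries in all. dMF1/2 mice carry Cor-cre, which is driven from the Corin locus and acts in the DP after birth, together with 2 floxed copies of both Fgfr1 and Fgfr2. The labels name the controls wild type, while the methods describe Cor-cre controls of this cross with 1 floxed copy of each receptor gene, and the reporter needs Cre. All 4 groups are labelled as DP cells.

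ErbB receptors are tyrosine kinases that pair with each other when an EGF-like ligand binds, and they signal mainly through Ras-ERK and PI3K-Akt. EGFR, the product of Egfr, binds TGF-alpha, HB-EGF, epiregulin, betacellulin and amphiregulin. ERBB3 binds neuregulins but has little kinase activity of its own, and ERBB2 binds no known ligand and serves as the partner of the others. In skin, signals through EGFR in the follicle epithelium are known to affect hair growth and the exit from anagen.

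The promoters of Erbb2 and Tgfa are shown because both genes changed between the days in control mice, in opposite directions. Each sequence is the 250 bases before the RefSeq start in GRCm38.p6, written 5′ to 3′ on the strand of the gene. Capitals mark the GC box GGGCGG, the motif bound by Sp1, or its reverse complement.
Erbb2, chr11:98412234-98412483, + strand: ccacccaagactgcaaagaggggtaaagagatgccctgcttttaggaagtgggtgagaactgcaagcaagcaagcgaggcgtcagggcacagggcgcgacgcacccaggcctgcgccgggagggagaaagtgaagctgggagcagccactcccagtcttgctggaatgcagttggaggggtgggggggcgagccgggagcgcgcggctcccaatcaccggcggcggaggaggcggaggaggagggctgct
Tgfa, chr6:86194972-86195221, + strand: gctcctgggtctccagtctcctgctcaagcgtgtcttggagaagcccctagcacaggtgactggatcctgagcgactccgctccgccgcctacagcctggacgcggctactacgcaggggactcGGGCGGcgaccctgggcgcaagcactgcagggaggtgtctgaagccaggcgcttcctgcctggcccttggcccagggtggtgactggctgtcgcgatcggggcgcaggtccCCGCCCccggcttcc
Tgfa held 2 GC boxes and Erbb2 held 0 in this window. Of 32851 promoters of the same length, 32.7% held a GC box. The AP-1 motif TGANTCA, the ETS motif CCGGAAG and the TCF/LEF motif CTTTGAT, each searched on both strands, had no match in either window. They were found in 6.75%, 6.91% and 3.21% of the promoters. The last bases of the Erbb2 window lie within the gene as the deposited tables place it.

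The libraries held between 19302358 and 29860750 reads in listed genes. Fgfr1 had a log2 fold change between dMF1/2 and control mice of -0.40 at P14 (limma's adjusted p = 0.501) and -0.50 at P16 (adjusted p = 0.130), and Fgfr2 of -0.11 and -0.01 (adjusted p = 0.974 and 0.978). These reads cover whole genes, so that they do not resolve the deleted exons. All 10 DP markers examined were present in every library, and their summed level lay between 83477 and 130809 normalized reads in the other 3 groups but between 44741 and 73414 in P16 control mice. Of these markers, 3 of 10 (Corin, Alpl and Sox18) fell between the days in control mice, at limma's adjusted p under 0.05. At that threshold 8.28% of all genes tested fell, and 0 of the 10 markers rose. The median log2 fold change of the 10 was -0.80, against 0.01 over all genes. Prom1 was at 0.50 (adjusted p = 0.180) and Pdgfra at 0.01 (adjusted p = 0.969). The summed level of 9 keratinocyte markers was between 289 and 840 normalized reads in any library. In such bulk libraries, fewer cells of a type and less RNA per cell cannot be told apart.

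Levels are given as normalized reads, which are reads divided by a size factor of the library. One scale over the 12 libraries was used for levels, and it differs from the deposited scale of each day by at most 2.23%. Nrg2 was the most abundant member per length in all 4 groups. Per kb of exon, its mean level was 1479 normalized reads in P14 control, 2384 in P14 dMF1/2, 234 in P16 control and 1469 in P16 dMF1/2 mice. Egfr and Erbb2 followed at 154 to 222 normalized reads per kb in the group means, so that in P16 control mice Nrg2 (234 ± 128, SD, n = 3) and Egfr (218 ± 21.6, SD, n = 3) lay within each other's spread. Hbegf had 28.1 to 42.5 normalized reads per kb, Erbb3 6.70 to 20.9 and Tgfa 3.52 to 10.9. Ereg, Areg, Btc and Nrg1 lay between 0.993 and 8.16 normalized reads per kb.

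**Figure D1:**
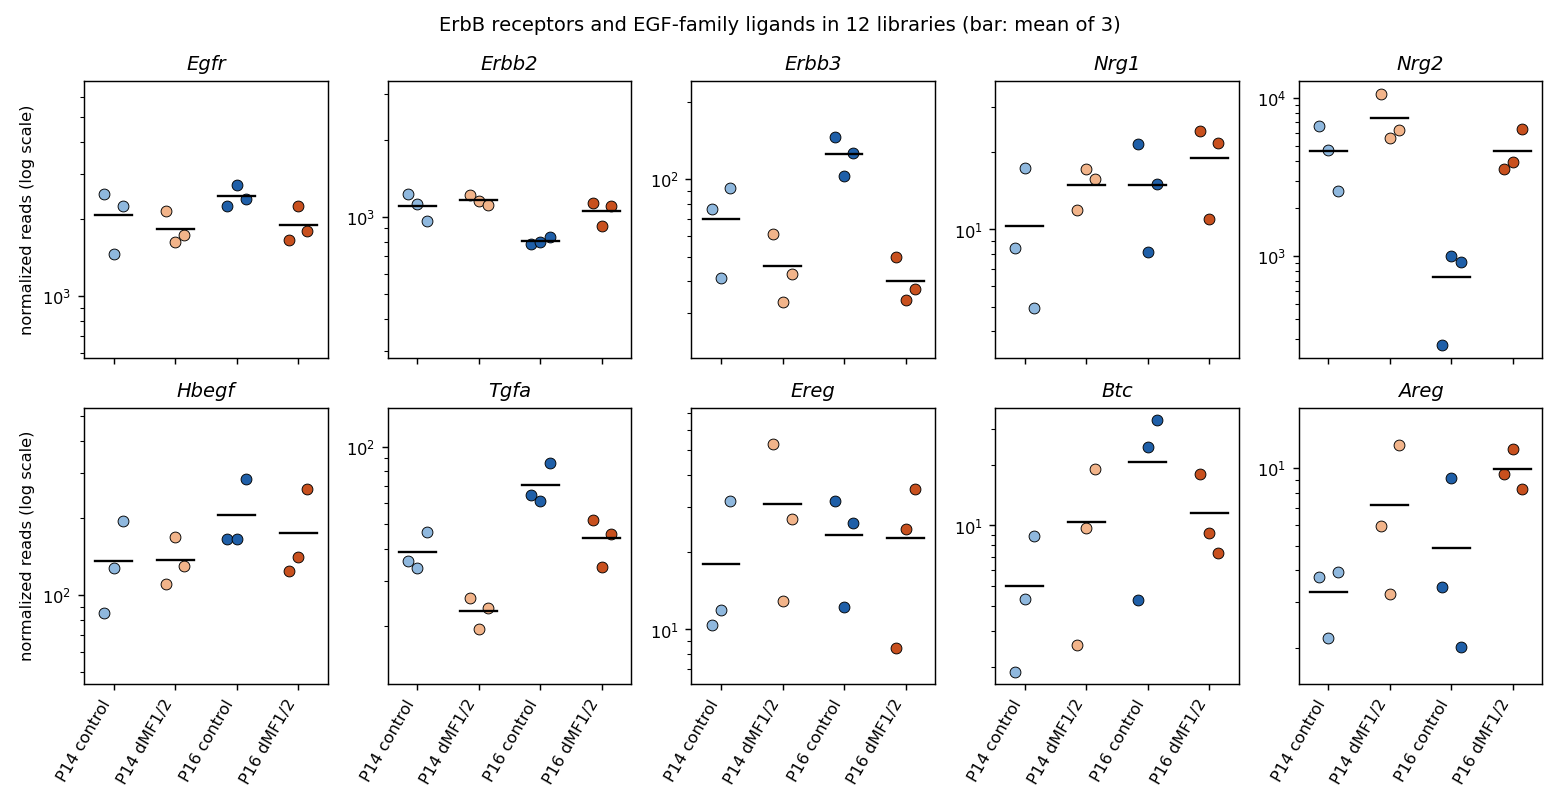
Normalized reads of the 10 members in each of the 12 libraries, on a log axis for each gene, with 1 point per mouse and a bar at the mean of 3. Nrg2 in the 3 P16 control libraries (275 to 1007) lies below the other 9 (2572 to 10636), and Erbb3 in the same libraries (103 to 146) lies above the other 9 (33.4 to 92.9).

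The members were tested, where their mean over the fitted libraries reached 10 normalized reads, among all such genes by limma on the log2 of normalized reads plus 1, and a change was called at an adjusted p under 0.05. At P16, 2 of the 9 members tested differed between the genotypes, Nrg2 higher and Erbb3 lower in dMF1/2 mice, against 4.32% of all 13457 genes tested (2.18% higher and 2.14% lower). With the replicate number as a block, which compares mice of the same number, Erbb2 and Egfr were also called, 4 of 9 against 10.4% of all genes, and DESeq2 called Nrg2, Erbb3 and Erbb2, 3 of 9 against 7.88%. At P14, 0 of 8 members tested were called, against 0.0525% of 13334 genes, and 0 with DESeq2 (1.4% of all genes), with edgeR or with the block (1.68%), while 1 (Tgfa) had an unadjusted p under 0.05, as had 7.32% of all genes. Between P14 and P16 in control mice, 3 of 9 members changed, against 14.5% of 13415 genes. Nrg2 and Erbb2 fell and Tgfa rose, where 8.28% of all genes fell and 6.26% rose. Over the same days 1 of 9 members changed in dMF1/2 mice, the rise of Tgfa, against 5.8% of all genes and 1.83% that rose. Areg was under the filter throughout, and Btc was under it at P14. Groups that do not overlap, in either direction, were found for 12.7% of all genes between the genotypes at P14 and 24.5% at P16, and between the days for 36% in control and 27.6% in dMF1/2 mice.

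**Figure D2:**
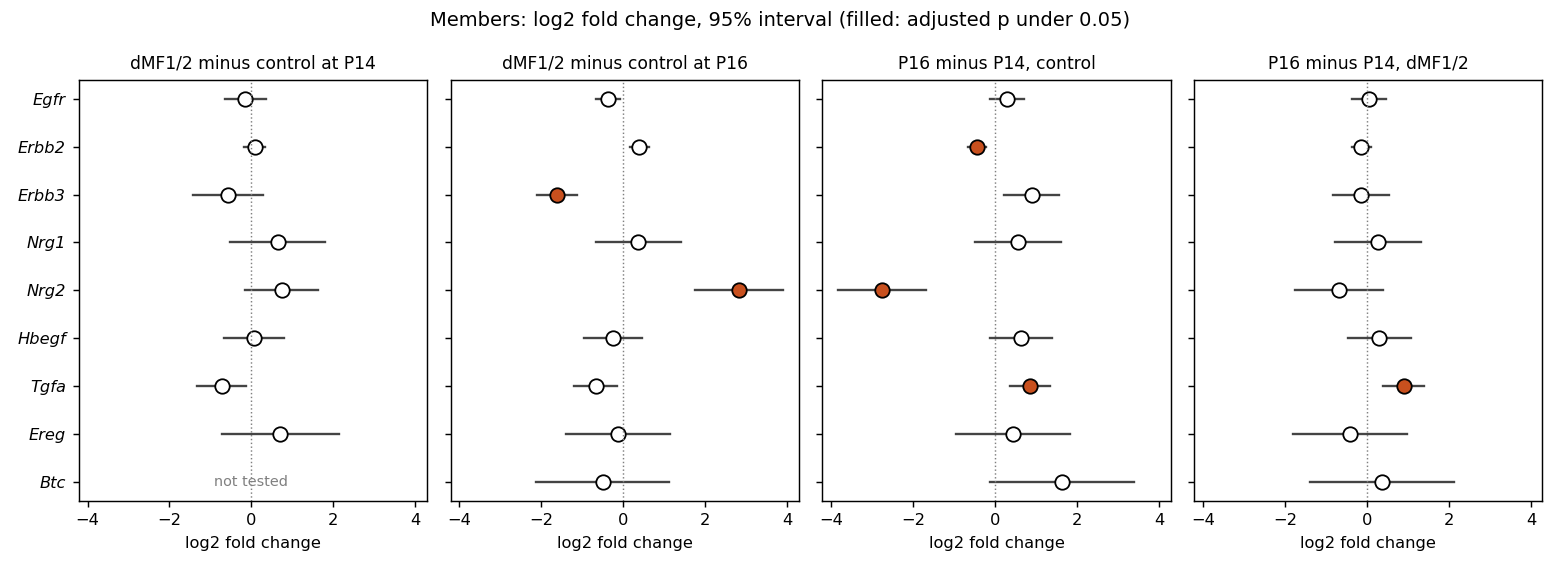
Log2 fold change of 9 members in each of 4 comparisons, with the 95% interval as a line and filled points for an adjusted p under 0.05. In dMF1/2 against control mice at P16, the filled points are Nrg2 at 2.82 and Erbb3 at -1.61.

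Nrg2 encodes neuregulin 2, a ligand that signals through ERBB3 or ERBB4 (ENSMUSG00000060275, chromosome 18 of GRCm38, 36017707 to 36197380, minus strand). Its normalized reads were 6662, 4692 and 2572 in the P14 control libraries and 275, 1007 and 923 at P16. The days do not overlap, and all P16 libraries are far below those of P14. Its level fell 6.79-fold between the days in control mice, or a log2 fold change of -2.76 ± 0.49 (SE), with an adjusted p of 0.00615 from limma. The call was kept with each control library left out, at an adjusted p of at most 0.0280, and the change was -2.16 without P16 control replicate 1, the lowest library. The levels of Corin, the DP marker whose locus drives the Cre, were also lowest in that library, and over the 3 P16 control libraries they lay between 2736 and 12145 normalized reads, against 20793 to 39219 at P14. The part of the DP marker levels in the change of Nrg2 was not tested.

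The normalized reads of Nrg2 in dMF1/2 mice were 10636, 5549 and 6266 at P14, against 3548, 3952 and 6330 at P16. The days overlap through the highest library of P16, and the log2 fold change was -0.69 with a 95% interval from -1.75 to 0.38 (limma's adjusted p = 0.444). At P16, every dMF1/2 library held more Nrg2 than any control library. The summed DP markers were also higher in P16 dMF1/2 mice, at 83477 to 114385 normalized reads against 44741 to 73414 in P16 control mice. Of the 10 markers, Alpl, Prom1 and Ptch1 were called higher in dMF1/2 mice, at log2 fold changes of 2.45, 1.07 and 1.38, while Crabp1 was called lower at -0.66 (limma's adjusted p = 0.0424). Their part in the result was not tested. The level of Nrg2 was 7.05-fold higher in dMF1/2 mice, or a log2 fold change of 2.82 ± 0.47 (SE), with an adjusted p of 0.0178. The call ended when dMF1/2 replicate 2 was left out (adjusted p = 0.0507) or dMF1/2 replicate 3 (adjusted p = 0.0785), with log2 fold changes of 2.91 and 2.57. Without P16 control replicate 1 the log2 fold change was 2.22 (adjusted p = 0.00478), the lowest of the 6 fits without 1 library, and the highest was 3.15. At P14, the genotypes overlapped, at a log2 fold change of 0.74 ± 0.38 (SE), with an adjusted p of 0.794. In order of the means, P14 dMF1/2, P14 control and P16 dMF1/2 mice overlapped with their neighbours, and P16 control mice lay apart at the bottom.

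Nrg1 encodes neuregulin 1, the other ligand of this kind among the members (ENSMUSG00000062991, chromosome 8, 31814551 to 32884029, minus strand). It held 4.94 to 24.3 normalized reads, between 5 and 25 reads in a library, and all 4 groups overlapped. Its log2 fold changes lay between 0.27 and 0.64 in the 4 comparisons of genotype or day, and none was called (limma's adjusted p between 0.455 and 0.902).

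Erbb3 encodes the neuregulin receptor that relies on the kinase of its partner (ENSMUSG00000018166, chromosome 10 of GRCm38, 128567523 to 128589652, minus strand). At P16, its normalized reads were 146, 103 and 127 in control mice, against 49.6, 33.9 and 37.4 in dMF1/2 mice. The groups do not overlap, and all control libraries are high and all dMF1/2 libraries low. The level was 3.05-fold lower in dMF1/2 mice, or a log2 fold change of -1.61 ± 0.21 (SE), with an adjusted p of 0.00841 from limma. The call was kept in each fit that left out 1 library, with an adjusted p of at most 0.0453, and its direction is opposite to that of Nrg2.

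Erbb3 at P14 had 76.4, 41.3 and 92.9 normalized reads in control mice, against 61.4, 33.4 and 42.6 in dMF1/2 mice. The genotypes overlapped, at a log2 fold change of -0.57 ± 0.36 (SE), with an adjusted p of 0.867 from limma. In control mice every P16 library lay above every P14 library, but the log2 fold change of 0.89 (standard error 0.31) had an adjusted p of 0.0740. It was 0.0444 with DESeq2, which called 18% of all genes in this comparison, and 0.0418 without P14 control replicate 3. The days overlapped in dMF1/2 mice, with a log2 fold change of -0.15 and a 95% interval from -0.83 to 0.52.

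Erbb3 is also expressed by Schwann cells and melanocytes, so that their markers were examined in the same libraries. Sox10, the transcription factor that defines both lineages, had 8.01 to 15.3 normalized reads in P16 control mice and 1.09 to 6.60 in the other 9 libraries. Its highest values are thus in the same 3 libraries as those of Erbb3. Mitf, which encodes a transcription factor of melanocytes, rose between the days in control mice at a log2 fold change of 0.52, with an adjusted p of 0.0140 from limma. It was not called between the genotypes at P16 (adjusted p = 0.651). The melanocyte gene Dct was at 0 to 1.02 normalized reads in P16 control mice. Of the melanocyte markers, 1 of 3 tested rose in control mice and 0 fell. The summed level of the 7 Schwann cell markers listed lay between 6708 and 9619 normalized reads in P16 control and 9067 and 10621 in P16 dMF1/2 mice. The summed level of the 6 melanocyte markers listed was 801 to 895 in P16 control and 758 to 830 in P16 dMF1/2 mice. The part of these cells in the level of Erbb3 was not tested.

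Erbb2 encodes the receptor without a ligand of its own, whose promoter is shown above (ENSMUSG00000062312, chromosome 11 of GRCm38, 98412470 to 98437716, plus strand). Its normalized reads in control mice were 1224, 1118 and 961 at P14, against 780, 799 and 835 at P16. The days do not overlap, and the level fell 1.36-fold, or a log2 fold change of -0.44 ± 0.10 (SE), with an adjusted p of 0.0182 from limma. The adjusted p passed 0.05 without P14 control replicate 1 (0.0699), P14 control replicate 2 (0.0556) or P16 control replicate 1 (0.0686), and in a fit of the 6 control libraries alone (0.0545).

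Erbb2 in dMF1/2 mice had 1211, 1149 and 1110 normalized reads at P14 and 1131, 922 and 1103 at P16. The days overlap, with a log2 fold change of -0.14 and a 95% interval from -0.37 to 0.08. At P16 every dMF1/2 library lay above every control library. The log2 fold change of 0.39 (standard error 0.10) had limma's adjusted p of 0.0739, and the gene was called with the block (0.0357), with DESeq2 (0.0356) and without dMF1/2 replicate 2 (0.0442). The last 9 bases of Erbb2 overlap the end of Mien1 on the other strand, and Mien1 had 282 to 323 normalized reads in P14 control, 233 to 263 in P16 control and 228 to 277 in P16 dMF1/2 mice. Its part in the reads of Erbb2 was not tested.

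Egfr encodes the receptor of the EGF-type ligands (ENSMUSG00000020122, chromosome 11, 16752203 to 16918158, plus strand). At P16 its normalized reads were 2255, 2734 and 2410 in control mice, against 1657, 2260 and 1800 in dMF1/2 mice. The highest dMF1/2 library just reached the lowest control library, and the log2 fold change was -0.37 ± 0.13 (SE), with an adjusted p of 0.163 from limma. Within each replicate number the dMF1/2 library was the lower, and the gene was called with the block (adjusted p = 0.0169). The values at P14, 2516, 1463 and 2247 in control mice against 2147, 1626 and 1733 in dMF1/2 mice, overlapped, with a log2 fold change of -0.15 (adjusted p = 0.980). Across the days, the log2 fold change was 0.28 in control and 0.05 in dMF1/2 mice, with 95% intervals from -0.14 to 0.70 and from -0.37 to 0.47.

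Tgfa encodes TGF-alpha, a ligand of EGFR (ENSMUSG00000029999, chromosome 6 of GRCm38, 86195223 to 86275719, plus strand). In control mice its normalized reads were 35.9, 33.7 and 46.4 at P14, against 64.5, 61.2 and 86.1 at P16. The values in dMF1/2 mice were 25.6, 19.4 and 23.6 at P14, against 51.8, 33.9 and 45.7 at P16. The days do not overlap in either genotype, and every P16 library lay above every P14 library of its genotype. Tgfa rose 1.80-fold in control mice, or a log2 fold change of 0.85 ± 0.23 (SE), with an adjusted p of 0.0316 from limma. It rose 1.86-fold in dMF1/2 mice, or a log2 fold change of 0.90 ± 0.23 (SE), with an adjusted p of 0.0424.

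These calls, on 18 to 86 reads of Tgfa per library, ended in the fit of the 6 compared libraries alone (limma's adjusted p = 0.0652 in control and 0.106 in dMF1/2 mice), and edgeR gave an adjusted p of 0.0515 in dMF1/2 mice. They also ended without some single libraries. In control mice the adjusted p exceeded 0.05 when the library left out was P14 replicate 1 (0.0982), P14 replicate 2 (0.0904), P16 replicate 1 (0.0751) or P16 replicate 3 (0.108). It was over 0.05 in dMF1/2 mice in 5 of the 6 fits without 1 library, reaching 0.168 without P16 dMF1/2 replicate 1, and it was 0.0339 without P16 dMF1/2 replicate 2. The log2 fold changes in these 12 fits stayed between 0.70 and 1.07. On both days, every dMF1/2 library lay below every control library. The log2 fold changes of -0.73 at P14 (standard error 0.25, adjusted p = 0.551) and -0.67 at P16 (standard error 0.23, adjusted p = 0.154) were not called, nor were they with the block (adjusted p = 0.289 and 0.0849).

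The other EGF-type ligands are known to bind EGFR, and none of them was called in a comparison. Hbegf, which encodes HB-EGF (ENSMUSG00000024486, chromosome 18, 36504929 to 36515805, minus strand), had 84.9 to 196 normalized reads at P14 and 125 to 284 at P16. Its largest log2 fold change was 0.62 between the days in control mice (standard error 0.35, limma's adjusted p = 0.241). Ereg, which encodes epiregulin (ENSMUSG00000029377, chromosome 5, 91074622 to 91093646, plus strand), had 8.45 to 52.9 normalized reads, and the highest and the lowest of them both belonged to dMF1/2 mice.

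Btc, which encodes betacellulin (ENSMUSG00000082361, chromosome 5, 91357261 to 91402994, minus strand), had 1.89, 4.35 and 8.89 normalized reads in P14 control and 4.30, 24.5 and 33.0 in P16 control mice. The days overlapped through P16 control replicate 1, at a log2 fold change of 1.64 ± 0.80 (SE), with an adjusted p of 0.185 from limma. It was 2.46 without that library and 1.19 without P14 control replicate 1, and it was not called in either fit. Over both days Btc in dMF1/2 mice lay between 2.56 and 19.1 normalized reads. Areg, which encodes amphiregulin (ENSMUSG00000029378, chromosome 5, 91139599 to 91148432, plus strand), was at 2 to 13 reads per library. Its mean was the higher in dMF1/2 mice on both days, at 7.18 against 3.30 normalized reads in control mice at P14 and 9.91 against 4.87 at P16, but the groups overlapped (two-sided exact permutation test, p = 0.3 and 0.2, where the smallest p for 3 against 3 is 0.1). Within mice of the same replicate number it was higher in dMF1/2 mice in 3 of 3 pairs on each day, and an exact permutation test within pairs, added after seeing the data, gave p = 0.25 on both days, the smallest p that 3 pairs allow.

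The change from P14 to P16 in dMF1/2 mice less that in control mice was tested in the fit of all 12 libraries. Among the members 0 were called by limma, DESeq2 or edgeR, against 0% of all genes with limma and 0.04% with DESeq2, while 2 of 9 members had an unadjusted p under 0.05, against 4.83% of all genes. Nrg2 had a difference of changes of 2.08 on the log2 scale (95% interval 0.57 to 3.59, unadjusted p from limma = 0.0113, adjusted p = 0.999996), which was 1.47 without P16 control replicate 1. Erbb3 had a difference of -1.05 (upper 95% limit -0.09, unadjusted p from limma = 0.0348, adjusted p = 0.999996). For Erbb2 it was 0.30 (95% interval -0.02 to 0.62). For Tgfa, which was called in both genotypes, it was 0.05 (95% interval -0.66 to 0.76).

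Of the 5 family genes outside the members, Egf, Nrg3 and Nrg4 were tested, and 0 were called by limma or had an unadjusted p under 0.05 in any comparison. Erbb4, the other neuregulin receptor, had 0 to 7.74 normalized reads. Egf, whose product is the founding ligand of EGFR, had 6.92 to 28.4 normalized reads, and Nrg3 and Nrg4, which encode ligands of ERBB4, had group means of 9.24 to 11.8 and of 13.6 to 17.1. Epgn was not among the genes analysed here.

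The genes that restrain the receptors were described as a list of 14, of which 13 were tested. At P16, 1 was higher in dMF1/2 mice, against 2.18% of all genes, and 0 were lower, with a median log2 fold change of -0.07 against -0.0043 over all genes. The gene was Cblb, a ubiquitin ligase of receptor kinases, at 0.55 (limma's adjusted p = 0.0353). Between the days in control mice, 2 of 13 rose and 0 fell, where 6.26% of all genes rose and 8.28% fell. Errfi1, whose product MIG6 inhibits EGFR and ERBB2, rose 2.17-fold, a log2 fold change of 1.11 (adjusted p = 0.0353), and Socs4 rose by 0.36 (adjusted p = 0.0142). The normalized reads of Errfi1 in P16 control mice were spread widely, at 4642, 6215 and 12696 in order of size, against 2873 to 4285 in P14 control mice. In dMF1/2 mice 1 rose, against 1.83% of all genes, Socs4 at 0.37 (adjusted p = 0.0218). Errfi1 in dMF1/2 mice had a log2 fold change of 0.73 between the days and was not called (adjusted p = 0.188).

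Of 13 genes for the release of ligands from the cell surface, 11 were tested. Adam10, a protease that sheds several EGF-family ligands, rose in control mice between the days at a log2 fold change of 0.36, with an adjusted p of 0.0118 from limma. No other gene of this list was called in a comparison, and 5 of the 11 had an unadjusted p under 0.05 between the genotypes at P16, against 19% of all genes, where the median was -0.11 against -0.0043 over all genes.

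All 35 genes of the adaptors, Ras-ERK and PI3K-Akt list were tested. At P16, Stat5b was higher in dMF1/2 mice at a log2 fold change of 0.39, with an adjusted p of 0.0352 from limma. Nck2 and Gab2, which encode adaptors, were lower at -0.58 (adjusted p = 0.0250) and -0.48 (adjusted p = 0.0459). Of all genes, 2.18% were higher and 2.14% lower. Between the days in control mice the median log2 fold change of the list was 0.11, against 0.01 over all genes. Among the genes that rose were Braf by 0.59, Eps15 by 0.41, Pik3ca by 0.39 and Crk by 0.34, and 0 fell. In dMF1/2 mice 6 of 35 rose, where 1.83% of all genes rose, and 0 fell, with a median of 0.06 against 0.0094. These were Pik3cb, Eps15, Pik3ca, Braf, Crk and Nras, with log2 fold changes from 0.64 for Pik3cb to 0.31 for Nras.

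**Figure D3:**
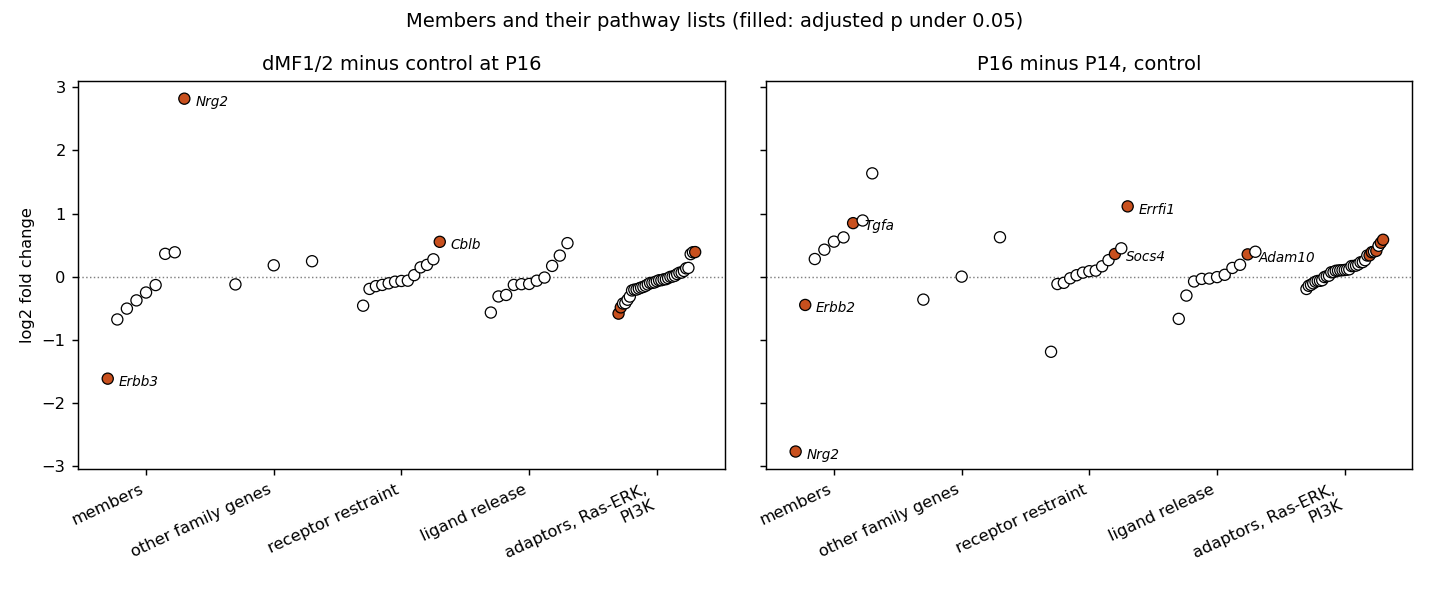
Log2 fold change of each tested gene of the members and of 4 pathway lists, for dMF1/2 against control mice at P16 and for P16 against P14 in control mice, with filled points for an adjusted p under 0.05. The points of Nrg2 lie at 2.82 and -2.76, while called genes of the pathway lists lie between -0.58 and 1.11.

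The genes most like a member were taken by the Pearson correlation of log2 normalized reads plus 1 over the 12 libraries, among 13414 other genes. These points share libraries and fall into 4 groups, so the correlations are descriptions. Nrg2 was most like Cdc34b (r = 0.992), Rspo2 (0.989), which encodes an R-spondin, and Ptprz1 (0.987), which encodes a receptor phosphatase. Rspo2 had 210 to 541 normalized reads in P16 control and 2071 to 6265 in the other 9 libraries, so that it is low in the same 3 libraries as Nrg2.

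Erbb3 was most like Ptma (r = 0.975), Vdr (0.958), which encodes the vitamin D receptor, and Slc30a2 (0.958), which encodes a zinc transporter. Vdr had 426 to 917 normalized reads in P16 control and 138 to 220 in P16 dMF1/2 mice, and these groups do not overlap. Erbb2 was most like Emc8 (r = 0.959), Anks1 (0.953) and Arid3a (0.953).

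**Figure D4:**
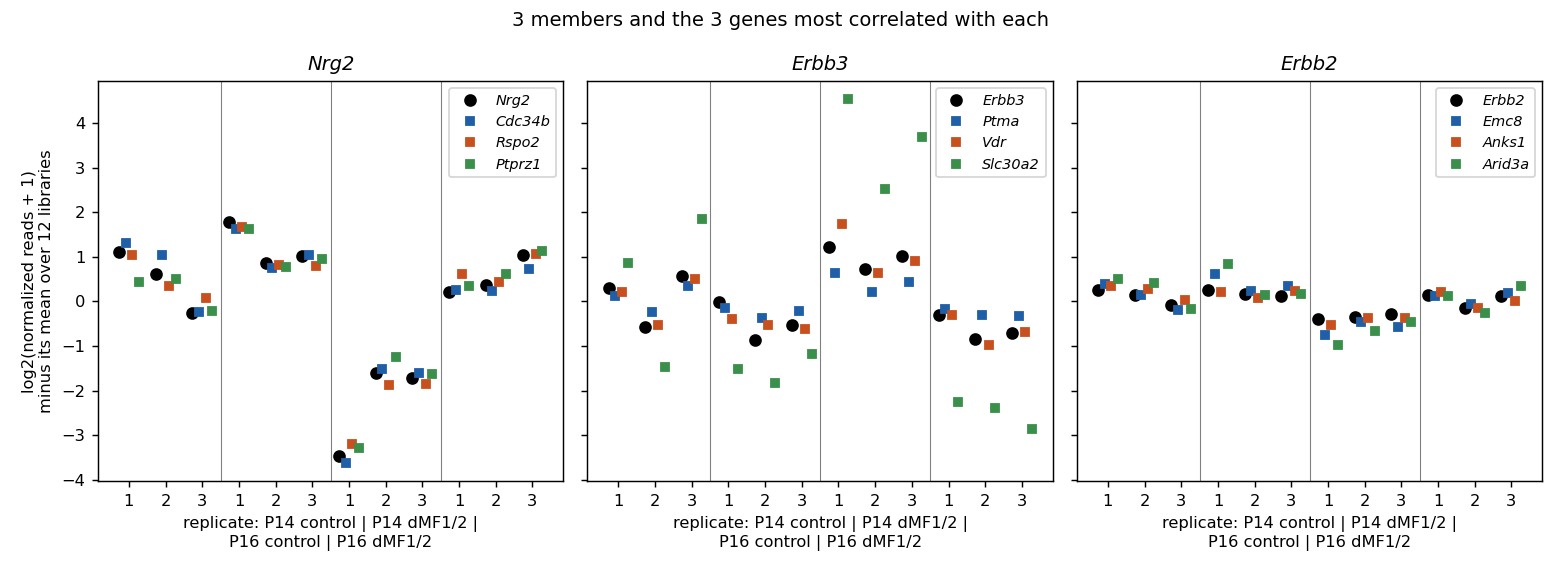
Log2 of normalized reads plus 1, less the mean over the 12 libraries, for Nrg2, Erbb3 and Erbb2 (circles) and the 3 genes most correlated with each (squares), with 1 column per library and lines between the 4 groups. Nrg2 and its 3 genes are lowest in P16 control replicate 1, and Erbb3 is highest in the same library.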

How the data were processed

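RNA from FACS-sorted DP cells of 12 mice was sequenced by the authors after depletion of ribosomal RNA, in libraries of a directional kit; whether counting used strand is not given in the sources used here. Per the labels and methods, reads were trimmed with Trimmomatic, mapped to mm10 with TopHat 2, counted on Ensembl GRCm38.p4 genes with HTSeq-count and normalized with DESeq2. Each deposited table holds a signal per gene and library, reads divided by a size factor over the 6 libraries of a day; 100.0% of values gave whole reads within a relative tolerance of 0.001. The authors' means, fold changes, standard errors, test statistics and p-values were not used. Genotypes were compared within a day by limma 3.58.1 (R 4.3.3, trend) on log2(normalized reads + 1), where a gene's mean reached 10, with Benjamini-Hochberg adjustment over all genes and a threshold of 0.05. For the days, whole reads of the 14986 genes in both tables were put on one scale over the 12 libraries (median of ratios, DESeq2) and fitted in 1 model of 4 groups. Fold changes are on the log2(value + 1) scale, which understates those of low genes.

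Members and gene lists were chosen with earlier results of these data known. Named genes were all members, the family genes outside them, called genes of the lists (at most 5 by size, with the rest of a list named after its values were seen) and the 3 genes most correlated with each of the 3 members of smallest adjusted p. Marker lists covered DP, keratinocyte, Schwann, melanocyte, endothelial, immune, muscle and adipocyte, and dividing cells. In endothelial markers 1 of 7 rose in control mice between the days (Emcn), in muscle and adipocyte markers 1 of 4 fell (Plin1), which was higher in dMF1/2 mice at P16, and of the immune, keratinocyte and dividing cell markers 0 were called by limma in any comparison. Libraries of the same number deviated together within a day, with correlations of 0.586, 0.389 and 0.304 at P14 and 0.256, 0.293 and 0.311 at P16, so that the number was used as a block there. Across days the correlations lay between -0.130 and -0.0545 in control and were 0.0292, 0.208 and -0.162 in dMF1/2 mice, so that the numbers were not taken as pairs. Alternatives were DESeq2 1.42.0, edgeR 4.0.16, TMM scaling, the block, pseudocounts of 0.1 and 10, no filter, other sets of libraries and leaving out each library; edgeR with the block and the paired test of Areg were added after seeing the data. Exon lengths are unions of GENCODE M21 exons (GRCm38). Exons of Erbb2, Ereg, Nrg1 and Tgfa overlap a gene on the other strand. Promoters are from a RefSeq table in which 5 of the 10 members were matched (Areg, Btc, Tgfa, Egfr and Erbb2); those of Erbb3, Ereg, Hbegf, Nrg1 and Nrg2 were not used here. The depth of 19302358 to 29860750 reads limits members with few reads. Results for some genes of the marker and pathway lists are not reported here.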

Additional observations from a re-analysis of the deposited data

How the results depend on the processing

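The direction of each call among the members was kept under each alternative tried. With the replicate number as a block, 4 members were called between the genotypes at P16 in place of 2, with limma and with edgeR, where Erbb2 and Egfr joined; the block changed no call at P14 or in the genotype by day test. Across days, where the numbers were not taken as pairs, it added Erbb3 in control mice (adjusted p = 0.0222). A fit of the 6 libraries compared gave 1 member between the days in control mice (Nrg2) and 0 in dMF1/2 mice, and edgeR gave 0 in dMF1/2 mice; the cause was not tested. With 1 library left out, the count was 1 to 2 at P16 and 1 to 4 between the days in control mice, 0 to 1 in dMF1/2 mice. Without P16 dMF1/2 replicate 3 it was 1 at P16. Over all genes, the count at P16 went from 149 to 684 with 1 library left out, and it was 1403 with the block and 1114 with DESeq2. In the genotype by day test, Tgfa was at -0.022 with a pseudocount of 10 instead of 0.05. Leaving out 1 library turned the sign of uncalled values only. The log2 fold changes then ranged at P14 between -0.38 and 0.011 for Egfr, -0.013 and 0.16 for Erbb2, and -0.22 and 0.37 for Hbegf, and at P16 between -0.57 and 0.0088 for Hbegf, -0.54 and 0.43 for Ereg, and -1.33 and 0.013 for Btc. Between the days in dMF1/2 mice they ranged between -0.077 and 0.17 for Egfr, -0.35 and 0.075 for Erbb3, -0.020 and 0.51 for Hbegf, -0.91 and 0.15 for Ereg, and -0.33 and 0.92 for Btc. In the genotype by day test they ranged between -0.39 and 0.0038 for Egfr, -0.72 and 0.10 for Nrg1, and -0.087 and 0.22 for Tgfa.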
